A study of Mus musculus with 32 samples.

Results

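The cells described here were radial glia of the embryonic day 12.5 (E12.5) mouse dorsal telencephalon in which no UMI of the proliferation genes Top2a and Mki67 was counted. A UMI marks a captured RNA molecule. The cells were chosen from raw UMIs: a barcode needed at least 1000 UMIs and 500 genes, a sum of at least 2 UMIs of Sox2 and Pax6, and none of Top2a, Mki67, Eomes, Neurod6, Gad2 or Olig1. This took 5885 of the 40792 E12.5 barcodes past the filter, or 14.4%, of 145082 barcodes in the whole series. All embryos were C57BL/6J, and each was either wild type (WT) or heterozygous for a loss of Chd8 (Chd8+/-, called het here), which encodes a chromatin remodeller of the CHD family. Each genotype had 4 libraries at E12.5, from 2 males (M1, M2) and 2 females (F1, F2). Litter mates of the same sex, 1 of each genotype, were paired, and libraries of the same name were taken as the pairs. Medial tissue, with the future hippocampus, was dissected away, and 3′ libraries were made with 10x v2 chemistry from each embryo. The labels name no driver or cell type restriction for the Chd8 allele. The 4 WT libraries gave 853, 531, 658 and 866 of these cells in the order M1, M2, F1, F2, which is kept below, and the 4 het libraries gave 791, 494, 722 and 970.

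Radial glia are the neural stem cells of the developing cortex. They divide at the ventricle and copy their DNA with the nucleus away from it. Notch signalling between neighbours, read out by the Hes genes, keeps some of them undifferentiated while others switch on proneural factors such as Neurog2 and produce neurons, directly or through intermediate progenitors marked by Eomes. Top2a and Mki67 transcripts are abundant late in the cell cycle and scarce early in it, whereas the replication licensing genes (the Mcm helicase subunits, Cdc6, Cdt1) and other genes of DNA synthesis are transcribed around the start of S phase under E2F transcription factors.

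The name "non-cycling" did not hold up against the data, so the cells are called Top2a/Mki67-negative radial glia, or negative radial glia for short. They are set beside Top2a/Mki67-positive radial glia, defined by the same rule but with at least 1 UMI of Top2a or Mki67 (14915 cells), beside 573 Eomes cells and 5653 Neurod6 cells (at least 2 UMIs of the named gene and none of Top2a or Mki67), and beside all 34907 other E12.5 cells. Levels are given as CPM, the UMIs of a gene scaled to 1000000 UMIs over all cells of that set in a library. Of the 4 radial glia markers, Sox2 and Pax6 are in the rule, so their levels check nothing. The other 2 were Hes5, at 390 CPM in the negative radial glia (316 to 468) against 286 in the positive radial glia, 236 in the Eomes cells and 37.5 in the Neurod6 cells, and Fabp7, at 1092 CPM (759 to 1468) against 999.7, 419 and 165. A wider list of 22 radial glia genes, with Sox2 and Pax6 among them, was nearly level between the negative and positive radial glia (8482 and 8332 CPM). It summed to 5001 CPM in the Eomes cells and 1638 in the Neurod6 cells. The 19 genes of the S phase list summed to 4756 CPM in the negative radial glia (4290 to 5084) and 4196 in the positive radial glia. In the Eomes cells they summed to 3305 CPM and in the Neurod6 cells to 867. When the cells that the rule had chosen from raw UMIs were thinned afterwards to 3000 UMIs each, between 95.8% and 98.2% of the negative radial glia of a library held a UMI of Pcna or Mcm2 to Mcm7, against 45.9% to 64.3% of the Neurod6 cells. Without thinning it was 96.1% to 99.9% of the negative radial glia and 60.6% to 93.75% of the Neurod6 cells. The 19 genes of the G2 and M phase list went the other way, at 3029 CPM (2335 to 4161) against 7416 in the positive radial glia. The Eomes and Neurod6 cells, which also held no UMI of Top2a or Mki67, were at 1895 and 982 CPM. The negative radial glia were thus as rich as the positive radial glia, or richer, in S phase transcripts. In G2 and M phase transcripts they were below the positive radial glia and above the Eomes and Neurod6 cells. The gap to the positive radial glia was in part fixed, since Top2a and Mki67, abundant late in the cell cycle, split these 2 sets.

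**Figure D1:**
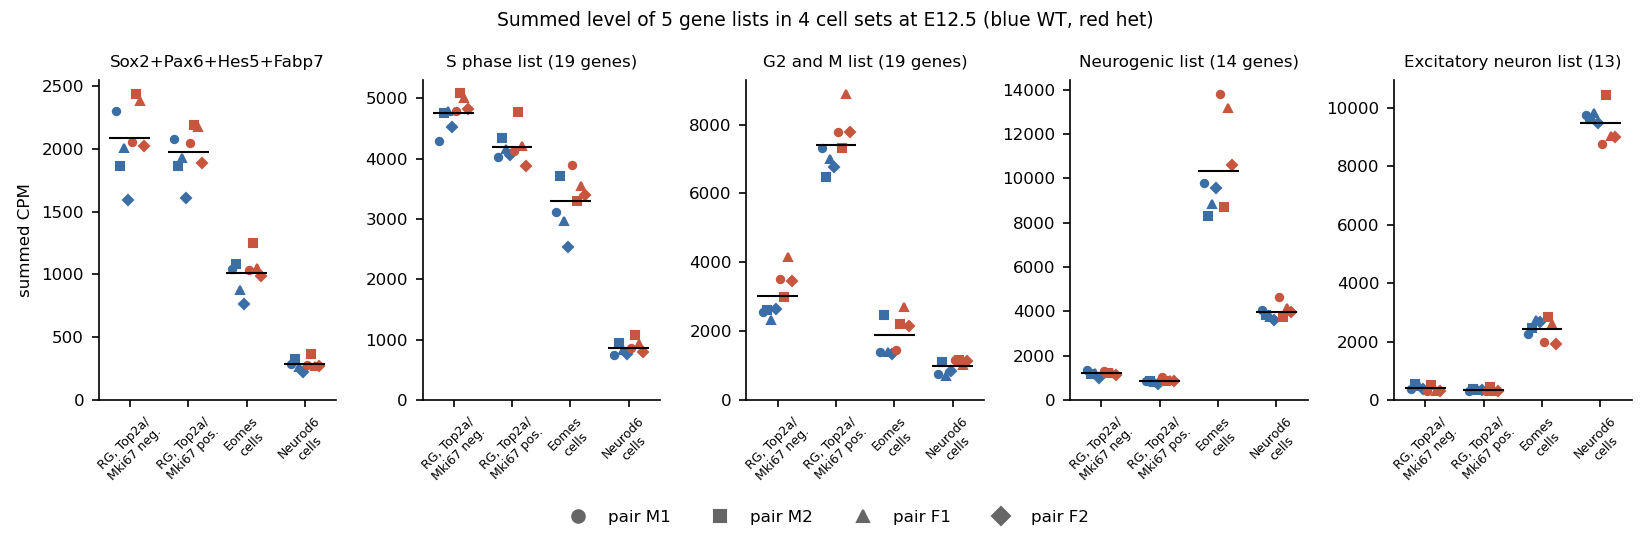
Summed CPM of gene lists in the E12.5 cell sets, 1 point per library on a linear axis. The S phase list lies at 4290 to 5084 CPM in the negative radial glia, as high as in the positive radial glia, while the G2 and M phase list lies at 2335 to 4161 CPM, below every value of the positive radial glia.

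The E2F sites near the starts of these replication genes are shown because the sum of the S phase list was high in these cells. Promoters were read from RefSeq (GRCm38.p6) as 250 bases before to 50 after the start, and searched on both strands for TTTGGCGC and TTTCCCGC, neither of which holds the other. Of 32851 promoters, 0.514% held TTTGGCGC, 1.07% held TTTCCCGC and 1.56% held either. Of the 17 S phase genes with a promoter in the table, 7 (41.2%) held either, namely Cdc6, Cdt1, Hells, Mcm3, Mcm5, Mcm6 and Mcm7, against 486 of all 27025 genes (1.80%). A match describes letters and not a bound site. The 250 bases before the starts of Ung, Mcm2, Mcm3, Cdt1 and E2f1 held no match, and those of Mcm3 and Cdt1 were counted over the full window. Capitals mark the matches in the 250 bases before the starts of Mcm6, Mcm5 and Cdc6, 5′ to 3′ on the gene's strand. Mcm6, on the minus strand at chr1:128359706-128359955, held TTTGGCGC 110 and 47 bases before the start. Mcm5, on the plus strand at chr8:75109259-75109508, held the reverse complement of TTTGGCGC 149 bases before it. Cdc6, on the plus strand at chr11:98907901-98908150, held the reverse complement of TTTCCCGC 138 bases before it. In the GENCODE annotation Cdc6 starts at chr11:98907801, so that this stretch lies inside the gene there.
Mcm6: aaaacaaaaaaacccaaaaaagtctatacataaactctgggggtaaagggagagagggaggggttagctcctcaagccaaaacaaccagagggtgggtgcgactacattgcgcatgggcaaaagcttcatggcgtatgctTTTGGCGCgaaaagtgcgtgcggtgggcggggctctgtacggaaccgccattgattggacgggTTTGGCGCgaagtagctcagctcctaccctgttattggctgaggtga
Mcm5: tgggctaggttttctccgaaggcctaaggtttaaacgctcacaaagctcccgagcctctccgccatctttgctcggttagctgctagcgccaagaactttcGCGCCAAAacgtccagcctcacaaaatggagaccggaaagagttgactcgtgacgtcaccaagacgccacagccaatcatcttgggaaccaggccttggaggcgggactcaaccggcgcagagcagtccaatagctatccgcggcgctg
Cdc6: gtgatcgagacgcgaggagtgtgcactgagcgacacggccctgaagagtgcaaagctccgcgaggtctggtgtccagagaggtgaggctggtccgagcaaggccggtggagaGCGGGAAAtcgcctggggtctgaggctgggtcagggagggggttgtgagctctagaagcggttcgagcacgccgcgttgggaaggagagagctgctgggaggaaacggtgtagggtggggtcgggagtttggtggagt

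The genes that set the negative radial glia apart are a description, since the cells were chosen by expression in the same libraries, and no test is given. Against the positive radial glia, 752 of 3254 genes at a mean of 50 CPM or more were higher in 8 of 8 libraries and 937 were lower in 8 of 8. Ung, which removes uracil from newly copied DNA, led at 207 CPM (178 to 237) against 80.5 (52.3 to 102), a log2 ratio of 1.38. Gins2, a subunit of the replicative helicase, stood at 160 against 91.7 CPM, E2f1 at 65.7 against 39.5, Mcm4 at 172 against 107 and Cdt1 at 101 against 65.4. Of the 20 genes with the largest ratio, 6 were on the S phase list. Another 2, Neurog2 (317 against 194 CPM) and its target Gadd45g (271 against 154), were on the neurogenic and intermediate progenitor list of 14 genes, which summed to 1197 CPM in the negative and 868 in the positive radial glia. The rest were on neither list, among them the histone gene Hist1h2bc (134 against 69.1 CPM), the noncoding RNAs Dancr (64.6 against 34.3), Snhg3, Snhg4 and Snhg18, and Mfng, a glycosyltransferase that modifies Notch (59.1 against 35.1). The lowest ratios were those of mitotic genes outside the rule, led by Prc1 (26.2 against 187 CPM) and Nusap1 (45.2 against 302 CPM), which both act on the mitotic spindle. After every cell was thinned to 3000 UMIs before the rule was applied, all 20 higher and all 10 lower genes kept their direction in 8 of 8 libraries, with the median log2 ratio of the 20 at 0.60 instead of 0.68 and that of the 10 at −1.44 instead of −2.67.

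Against all other E12.5 cells, 1019 of 3280 genes were higher in 8 of 8 libraries and 879 lower. Ung again led (log2 ratio 1.45), followed by Gins2 (1.02) and Fgfbp3, a carrier of FGF ligands (0.94, 157 against 81.0 CPM). Hes5, a Notch target that represses proneural genes, stood at 390 against 221 CPM, Slc1a3, the glial glutamate transporter, at 101 against 61.0, and Ptn, a heparin-binding growth factor, at 964 against 591. The lowest genes were those of red blood cells and neurons, among them Neurod2 (4.95 against 114 CPM), Stmn2 (30.5 against 323) and Tbr1 (10.6 against 117). The other cells include the positive radial glia, which also held Slc1a3. Thinned to 3000 UMIs after being chosen, a mean of 25.1% of negative and 21.8% of positive radial glia per library held a UMI of Slc1a3. For Nes, another gene of the radial glia list, the means went the other way, at 21.5% and 25.5%.

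**Figure D2:**
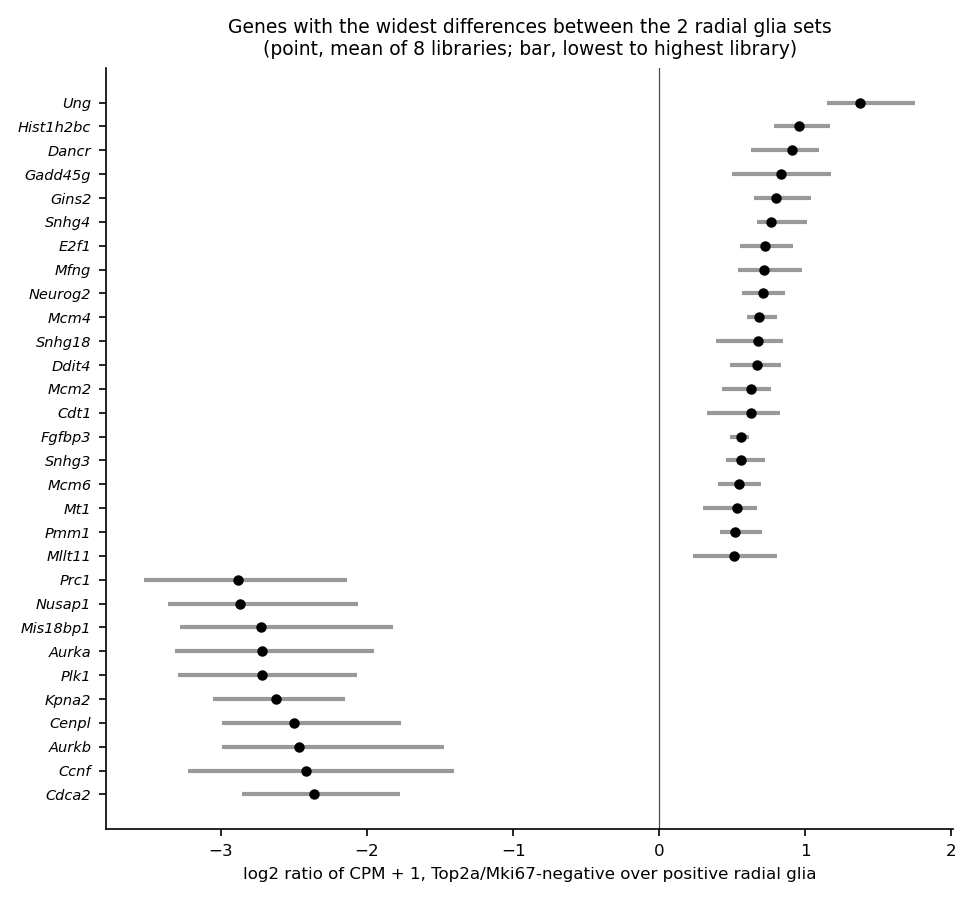
Log2 ratio of CPM in Top2a/Mki67-negative over Top2a/Mki67-positive radial glia for each gene named by rule, with the genes of the rule left out. Points give the mean of 8 libraries, and bars run from the lowest to the highest library. Ung is highest at a mean of 1.38 and Prc1 lowest at −2.88. All 8 libraries of each gene lie on the same side of 0, which was a condition of the choice.

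The negative radial glia were not uniform. With no thinning, 3310 of them (56.2%) held a UMI of Neurog2, and 4415 (75.0%) held UMIs of both Sox2 and Pax6. Thinned to 3000 UMIs after being chosen, 31.8% to 42.9% of a library's negative radial glia held Neurog2, against 23.1% to 32.9% of the positive radial glia and 32.9% to 44.4% of the Neurod6 cells. For levels, the negative radial glia were split by Neurog2 with no thinning, so depth per cell was not matched. Those with Neurog2 had 419 CPM of Gadd45g against 75.7 in those without, 57.8 against 12.1 CPM of the Notch ligand Dll1, and 75.1 against 37.3 of Mfng, each higher in 8 of 8 libraries. Fabp7, a fatty acid binding protein of radial glia, was lower with Neurog2 in 8 of 8 libraries (892 against 1402 CPM). Hes5 was at 385 against 400 CPM. Of the replication genes, Mcm2 was at 258 against 262 CPM, Ung was lower with Neurog2 in 8 of 8 libraries (201 against 217) and Gins2 in 7 of 8 (151 against 176).

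Few negative radial glia lacked transcripts of DNA synthesis. Thinned to 3000 UMIs after being chosen, 156 held no UMI of Pcna or Mcm2 to Mcm7 and 4549 held at least 3. The cells without, 11 to 34 of a library, had 31.4 CPM of Ung against 217, with libraries between 0 and 71.4. They had 3.79 CPM of the origin licensing factor Cdc6 against 50.6, with libraries between 0 and 30.3. They also had 395 CPM of the neuronal gene Stmn2 against 15.2, with libraries between 0 and 1333, and 941 CPM of Tubb3, neuronal tubulin, against 222. They had 11898 CPM of the embryonic globin Hbb-y against 419, with libraries between 0 and 58595. The fibroblast collagen Col3a1 stood at 27.6 against 1.62 CPM, with libraries between 0 and 185. Hes5 stood at 472 CPM, with libraries between 95.2 and 909, against 418. Of other radial glia genes, Fabp7 stood at 1640 against 1147 CPM, with libraries between 792 and 2676. Vim stood at 1403 against 1091 CPM, with libraries between 545 and 2686. The cells with 3 or more such UMIs were the higher ones in 1 of 8 libraries for Hbb-y, Stmn2 and Tubb3. They were higher in 2 of 8 for Fabp7 and Vim and in 4 of 8 for Col3a1 and Hes5.

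At the border of the rule, 1371 negative radial glia held exactly 2 UMIs of Sox2 and Pax6 and 1476 otherwise equal cells held exactly 1. Hes5 stood at 370 CPM just inside and 269 just outside, Fabp7 at 931 and 715, Tubb3 at 339 and 599, and Stmn2 at 77.2 and 221. The Cajal-Retzius gene Reln stood at 7.63 and 23.0 CPM, and the globin Hba-a1 at 624 and 10245. On the other border, 3443 cells held exactly 1 UMI of Top2a or Mki67, with 110 CPM of Nusap1 and 425 of Ube2c, a ubiquitin-conjugating enzyme of mitosis. Nusap1 and Ube2c stood at 45.2 and 235 CPM over all negative radial glia.

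The share taken by the rule differed with depth. The share of cells that it took was 15.4% between 1000 and 3000 UMIs, 19.98% between 3000 and 5000 UMIs, 18.5% between 5000 and 10000, 8.18% between 10000 and 20000 and 1.84% at more. Depth also differed by genotype in 3 of the 4 pairs: the median UMIs of a negative radial glial cell were 7319, 8219, 8973 and 8717.5 in WT and 5949, 8346, 4136.5 and 5367 in het, a het over WT ratio of 0.813, 1.02, 0.461 and 0.616. The M2 pair, where the median per cell was nearly equal, had 1.29 times as many UMIs in its whole het library as in its WT library. It is also the only one whose library code starts with c15 and not c10, whose meaning is not given, so that depth, code and pair cannot be told apart. Whole E12.5 libraries held 20210276 to 66499864 UMIs, and the summed negative radial glia 3120051 to 7868910. Of 39776 barcode sequences, 1006 (2.53%) occurred in more than 1 E12.5 library, 31 of them as negative radial glia in more than 1. A doublet score marked 1691 E12.5 cells (4.15%), of which 56 were negative radial glia.

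Negative radial glia made up 14.8%, 12.2%, 13.3% and 15.03% of the cells of the WT libraries and 18.0%, 9.51%, 16.6% and 16.05% of those of the het libraries. The groups overlapped, with het M2 below all WT libraries and the other 3 het libraries above them. The means were 13.8% ± 1.34 (SD, n = 4) and 15.04% ± 3.78 (SD, n = 4), a difference of 1.20 percentage points (exact permutation test, two-sided, p = 0.543). Without het M2 the difference was 3.04 points (exact permutation p = 0.0286, the smallest the test allows), at the unequal depth just described. With every cell thinned to 3000 UMIs first it was 0.756 points (exact permutation p = 0.514), and with at least 4 UMIs of Sox2 and Pax6 asked for it turned to −1.59 (exact permutation p = 0.229).

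**Figure D3:**
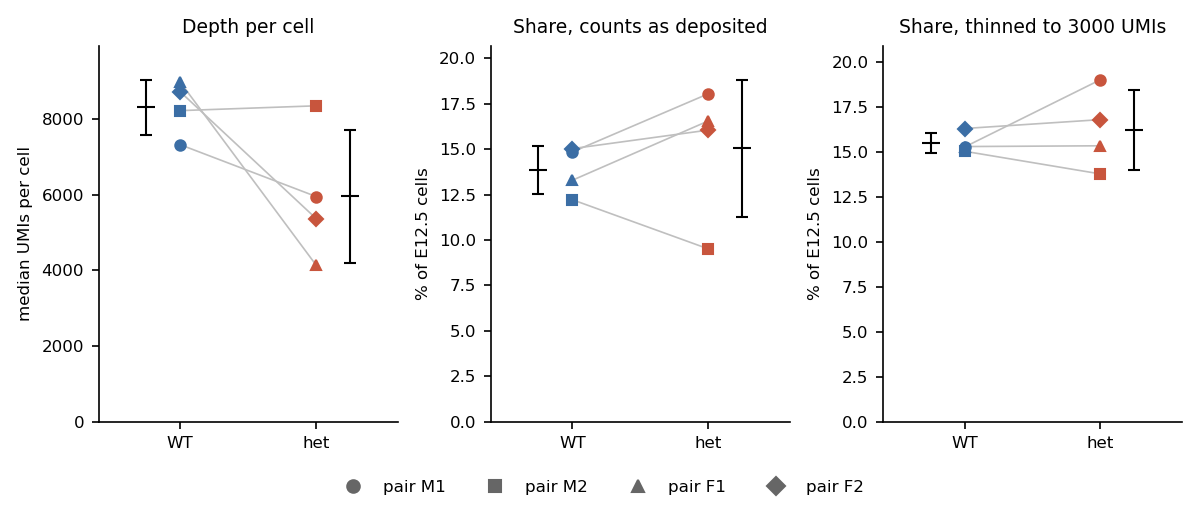
Share of E12.5 cells that were Top2a/Mki67-negative radial glia, as counted and after thinning to 3000 UMIs, and their median UMIs, by genotype with the mean and SD; lines join the WT and het library of a pair. Het shares run from 9.51% to 18.0% around WT shares of 12.2% to 15.03%, and the het library is shallower in the M1, F1 and F2 pairs.

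Chd8, the gene whose loss defines the het embryos (chr14:52198151-52257780, minus strand, GRCm38, overlapping Snord8 and Gm26590), stood at 34.4, 31.1, 34.1 and 33.5 CPM in the negative radial glia of the WT libraries and at 29.7, 25.5, 18.9 and 26.7 CPM in those of the het libraries. All 4 het libraries lay below all 4 WT libraries, as for 5.48% of all genes tested. The means were 33.3 ± 1.49 (SD, n = 4) and 25.2 ± 4.57 (SD, n = 4), a ratio of 0.757, with a log2 fold change of −0.34 ± 0.12 (SE) and an adjusted p of 0.168 in edgeR's quasi-likelihood test (0.121 with pairs as blocks). Which exons the allele loses is not given in the sources used here, and 3′ counts check the label only where the loss lowers the whole transcript. The interaction of genotype with cell set, negative radial glia against the other E12.5 cells, was 0.03 on the log2 scale (adjusted p = 0.973).

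Of the other CHD remodellers, Chd3 and Chd7 were called lower in het negative radial glia with pairs as blocks. Chd3, the core ATPase of a NuRD deacetylase complex (chr11:69343273-69369406, minus strand, overlapping Gm22442), stood at 73.2, 59.9, 66.8 and 76.2 CPM in WT and 40.9, 39.7, 34.9 and 43.7 in het. The groups did not overlap and het was lower in every pair, with a log2 ratio of −0.58 in the M2 pair. Its log2 fold change was −0.74 ± 0.11 (adjusted p = 0.0709), and it was called lower with pairs as blocks (adjusted p = 0.00636), also after thinning (−0.65, adjusted p = 0.0268, thinned, pair as a block). Chd7, which acts at enhancers and is mutated in CHARGE syndrome, was called lower with pairs as blocks (−0.75, adjusted p = 0.0313), but its M2 pair differed by only −0.09, and after thinning it was at −0.52 (adjusted p = 0.0562). Of the 7 CHD genes tested other than Chd8, 3 had an unadjusted p under 0.05 and all of these were lower, against 9.6% lower among all 11124 genes tested, and the median log2 fold change was −0.12 against −0.01 over all genes.

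Across all 11124 genes tested, edgeR called 0 (0%) between het and WT in the negative radial glia at an adjusted p under 0.05. The lowest adjusted p was 0.0709, 2238 genes (20.1%) had an unadjusted p under 0.05, 1170 (10.5%) higher and 1068 (9.6%) lower in het. DESeq2 on the same genes called 321, 212 higher and 109 lower. With the pair as a block edgeR called 213 (1.91%), 116 higher (1.04%) and 97 lower (0.872%). Of these, 201 had the same sign in the M2 pair, which that fit used, so their signs there are no separate check. The number rested on which pairs were in the fit: it was 9, 12 and 1 without the M1, F1 and F2 pair and 2088 without the M2 pair. Without the M2 pair and without a block, 1980 genes (17.6%) were called, and 1052 of them (53.1%) had the same sign in the M2 pair that the fit had not used. The median M2 log2 ratio was 0.06 for those called higher and 0.05 for those called lower, against 0.07 over all genes. Leaving out het M2 alone gave 2068 genes and WT M2 alone 8. After every cell was thinned to 3000 UMIs before the rule, 1 gene was called without the block (0.0103%) and 48 with it (0.496%), and 1111 were called without the M2 pair. Thinning matched the UMIs per cell and not per library, since 476 to 940 cells of a library then met the rule, and the cells too shallow for it were all het. Several genes are therefore given with every library, with the block and after thinning, and the others with fewer of these values.

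Among genes of the Wnt source at the dorsal midline, Rspo3 was called lower in het negative radial glia with pairs as blocks, both as counted and after thinning. Rspo3, a secreted enhancer of Wnt signalling (chr10:29452416-29535867, minus strand, overlapping Gm20276 and Gm48159), stood at 13.4, 10.7, 17.3 and 33.3 CPM in WT and 2.69, 5.47, 7.05 and 2.87 in het. The groups did not overlap, and WT F2 was the highest library. Its log2 fold change was −2.12 ± 0.40 (edgeR adjusted p = 0.0713), −2.06 with pairs as blocks (adjusted p = 0.0165) and −1.88 after thinning with the block (adjusted p = 0.0250).

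The ligand Wnt8b, expressed from the medial edge of the pallium (chr19:44493472-44514273, plus strand), stood at 19.8, 14.8, 20.2 and 45.6 CPM in WT and 13.01, 6.61, 10.9 and 7.17 in het, again with WT F2 far above the rest and no overlap. It was called lower with pairs as blocks (−1.34, adjusted p = 0.0360) but not after thinning (−1.22, adjusted p = 0.0728). Sp5, a transcription factor induced by Wnt signalling (chr2:70474923-70477729, plus strand), fell from 18.5, 13.1, 24.1 and 29.6 CPM to 11.2, 5.93, 10.3 and 11.8 (pair as a block, −1.05, adjusted p = 0.0137), with −0.56 and an adjusted p of 0.192 after thinning. Wls, the carrier that brings Wnt ligands to the cell surface, was called lower with pairs as blocks (−0.82, adjusted p = 0.0324; −0.65 and 0.103 after thinning). The 12 genes of the cortical hem and choroid plexus list, a medial tissue that the dissection was meant to leave out, summed to 37.4, 32.2, 41.9 and 76.0 CPM in WT and to 13.8, 21.2, 20.2 and 14.7 in het negative radial glia, and none of them was at 0 in all libraries. Of the 5 tested, 4 were lower at an unadjusted p under 0.05 (Rspo1, Rspo3, Bmp7 and Dkk3), against 9.6% of all genes, with a median log2 fold change of −0.88, and Rspo3 was the 1 called with pairs as blocks (0.872% of all genes). Rspo3 is itself on the list, and the part of the list's level in the other results was not tested.

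Of 16 genes of the Wnt list tested, 7 were lower and none higher at an unadjusted p under 0.05 (9.6% and 10.5% of all genes). Wnt8b and Sp5 were the 2 called lower with pairs as blocks (0.872% of all genes). The median log2 fold change was −0.24, and 0.03 in the M2 pair alone. Lef1, a DNA-binding partner of beta-catenin, was at 46.4 ± 7.85 CPM in WT and 47.9 ± 7.05 in het (SD, n = 4 each), and the Wnt target Axin2 at 9.28 ± 2.71 and 7.21 ± 2.21. The promoter of Sp5 is shown for the sequence that TCF and LEF proteins read: capitals mark CTTTGAT and, as its reverse complement, CTTTGTT, 104 and 222 bases before the start, in the 250 bases at chr2:70474673-70474922 on the plus strand (GRCm38.p6).
Sp5: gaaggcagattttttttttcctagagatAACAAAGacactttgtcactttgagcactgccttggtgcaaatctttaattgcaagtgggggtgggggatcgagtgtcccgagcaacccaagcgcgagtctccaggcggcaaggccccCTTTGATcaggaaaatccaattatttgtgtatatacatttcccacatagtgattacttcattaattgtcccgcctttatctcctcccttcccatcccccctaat
On both strands 9.33% of all promoters held either motif, and 2 of the 11 Wnt genes in the table did (Sp5 and Tcf7l2, 18.2%) against 10.6% of all genes.

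Lmo2, a bridging factor of blood and endothelial transcription complexes (chr2:103957986-103981878, plus strand, overlapping 4931422A03Rik), showed the largest fall among the genes called with pairs as blocks at a mean of 10 CPM or more and with the same sign in 4 of 4 pairs. It stood at 18.5, 10.95, 15.4 and 39.1 CPM in WT and 3.30, 2.97, 7.05 and 6.27 in het, with no overlap and WT F2 highest. Its log2 fold change was −2.11 ± 0.42 (edgeR adjusted p = 0.0784), −2.08 with pairs as blocks (adjusted p = 0.00451) and −1.66 after thinning with the block (adjusted p = 0.0250). The endothelial list summed to 11.9 to 29.8 CPM in the negative radial glia, and its 1 gene tested had a log2 fold change of 0.10. Erythroid genes summed to 464, 11290, 356 and 195 CPM in WT and 40.1, 7150, 159 and 157 in het, lower in het in 4 of 4 pairs, with 7 genes tested and a median log2 fold change of −0.75. The sum of the cortical hem and choroid plexus list was, like Lmo2, highest in WT F2, and the part of either list in the fall of Lmo2 was not tested.

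Igfbpl1, a secreted protein related to the IGF binding proteins (chr4:45809468-45826923, minus strand), stood at 227, 173, 208 and 267 CPM in WT and 89.4, 113, 132 and 124 in het. Every het library was below every WT library, and the means were 219 ± 39.2 and 115 ± 18.5 (SD, n = 4 each). Its log2 fold change was −0.89 ± 0.15 (adjusted p = 0.0709), it was called lower with pairs as blocks (−0.88, adjusted p = 0.00818) and after thinning with the block (−0.54, adjusted p = 0.0433), and it was the 1 gene called when sex was a covariate. Its fall was larger than in the positive radial glia (interaction −0.30 on the log2 scale, adjusted p = 0.00496) and larger than in the other E12.5 cells (−0.86, adjusted p = 0.00356). After thinning the former was no longer called (adjusted p = 0.998), and the latter was −0.51 (adjusted p = 0.000397).

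The noncoding RNA Kcnq1ot1, which silences an imprinted domain (chr7:143203458-143296549, minus strand), fell from 63.0, 53.7, 60.4 and 54.4 CPM to 28.1, 43.8, 28.2 and 34.1 (−0.75, adjusted p = 0.0201, pair as a block; −0.68 and 0.0250 after thinning). Kcnq1 lies on the opposite strand of the same stretch, and without knowledge of strand the reads of the 2 genes cannot be told apart. Sfxn1, a mitochondrial serine transporter, was the 1 gene called after thinning without the block (log2 fold change −0.67, adjusted p = 0.0468), at 210, 182, 204 and 192 CPM in WT and 119, 166, 93.3 and 125 in het; it was named after its values were seen.

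Lhx2, a selector gene of cortical identity, was at 652, 651, 654 and 722 CPM in WT and 437, 546, 428 and 499 in het, with no overlap. It was called lower with pairs as blocks (−0.45, adjusted p = 0.0404) and was at −0.36 after thinning (adjusted p = 0.0927). The other genes called lower by the same rule were Cav1, a protein of caveolae (−1.17, adjusted p = 0.0348), the apical polarity protein Crb2 (−0.82, adjusted p = 0.0397), Stmn2 (−0.87, adjusted p = 0.0313), the lincRNA E330013P04Rik (−1.04, adjusted p = 0.00636) and the beta globins Hbb-bt and Hbb-bs (−1.01 and −0.95, adjusted p = 0.0439 and 0.0323), all with pairs as blocks. After thinning with the block, Hbb-bs was the only one of these 6 with an adjusted p under 0.05 (−1.20, adjusted p = 0.0351). The globins rested on the M2 pair, with Hbb-bt at 545 CPM in WT M2 and 333 in het M2: without a block, the log2 fold changes of Hbb-bt and Hbb-bs were 2.38 and 1.71 without WT M2 and −4.42 and −3.60 without het M2. The imprinted gene Peg3 was at 18.0 ± 1.58 CPM in WT and 10.2 ± 1.09 in het (SD, n = 4 each; −0.77, adjusted p = 0.0313, pair as a block).

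**Figure D4:**
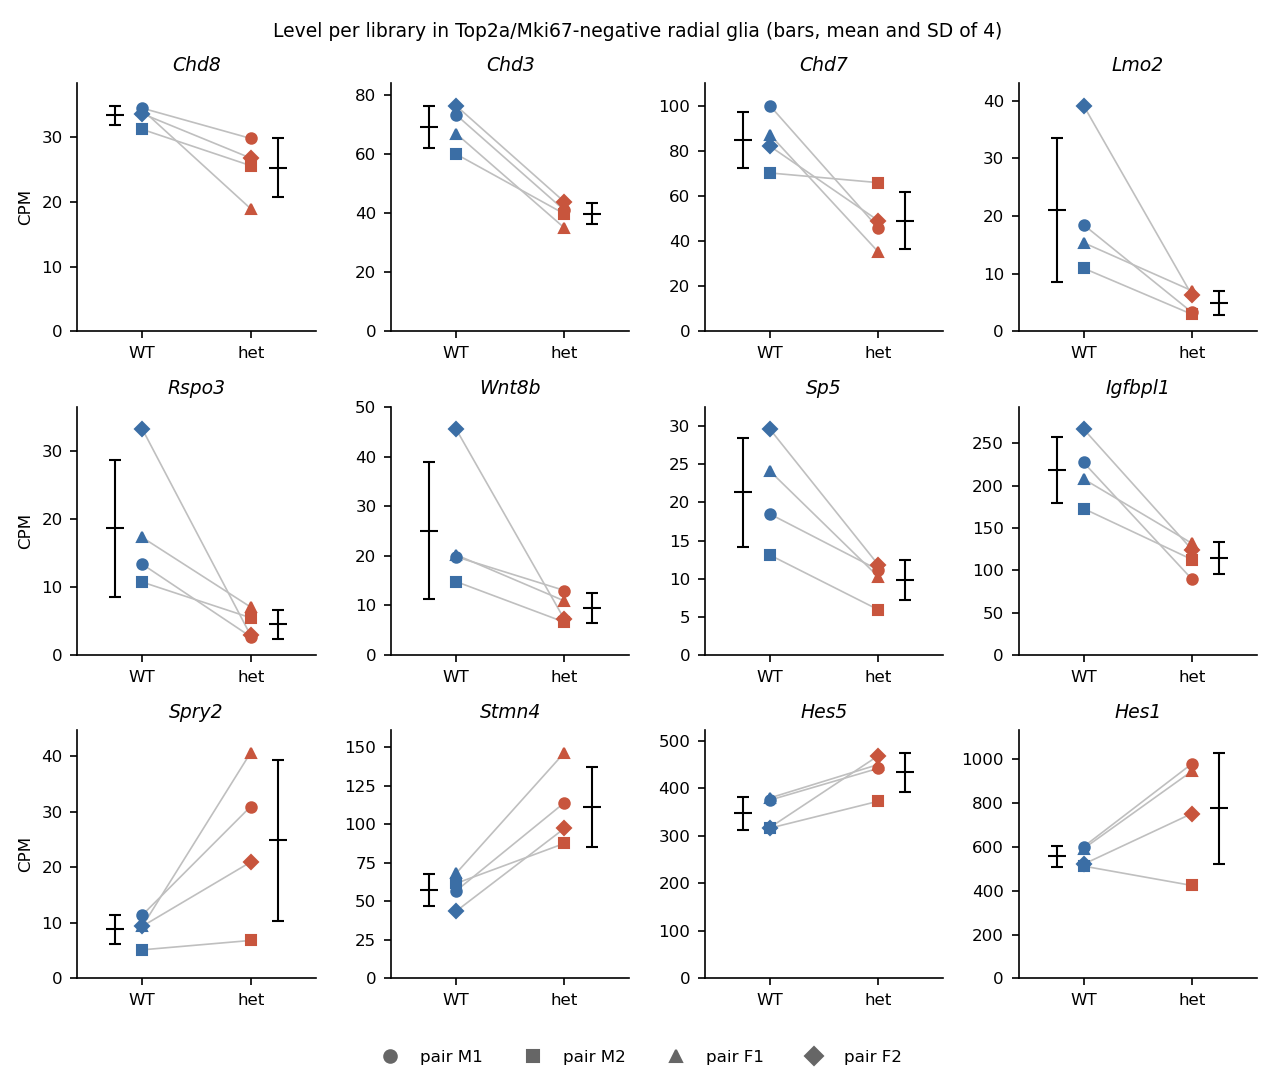
CPM of named genes in Top2a/Mki67-negative radial glia by genotype, with the mean and SD; lines join the WT and het library of a pair. For Chd3, Igfbpl1, Rspo3 and Lmo2 every het library lies below every WT library, whereas the groups of Hes5 and Spry2 overlap.

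Among genes that rose, Stmn4, a regulator of microtubules (chr14:66344296-66361680, plus strand), stood at 56.8, 61.6, 68.1 and 43.6 CPM in WT and 114, 87.6, 146 and 97.3 in het. The groups did not overlap, and the log2 ratio of the M2 pair was 0.50. Stmn4 was named from fits that used this pair, so its sign there is no separate check. Its log2 fold change was 1.01 ± 0.17 (adjusted p = 0.0709), and it was called higher with pairs as blocks as counted (1.00, adjusted p = 0.00636) and after thinning (0.79, adjusted p = 0.0156). Nsmce1, a subunit of the SMC5/6 DNA repair complex, stood at 115, 111, 108 and 114 CPM in WT and 153, 147, 162 and 156 in het (0.51, adjusted p = 0.0313 with the block; 0.55 and 0.0250 after thinning). Krt10, an intermediate filament gene overlapping Gm11940, stood at 67.2, 65.1, 66.5 and 62.3 CPM in WT and 109, 81.9, 120 and 102 in het (0.70, adjusted p = 0.0193 with the block; 0.73 and 0.0250 after thinning).

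Spry2, a feedback inhibitor of FGF receptor signalling (chr14:105891947-105896819, minus strand), had the largest rise among the genes called with pairs as blocks at a mean of 10 CPM or more and with the same sign in 4 of 4 pairs, 1.49 (adjusted p = 0.0130; 1.25 and 0.0169 after thinning). It stood at 11.4, 5.15, 9.39 and 9.40 CPM in WT and 31.0, 6.84, 40.7 and 20.97 in het. The rise was in the M1, F1 and F2 pairs, and het M2 lay within the WT range, with a log2 ratio of 0.35 in its pair. Immediate early and heat shock genes, 13 in all, summed to 1208, 788, 1232 and 946 CPM in WT and 1578, 801, 1382 and 1260 in het. The sums differed least in the M2 pair, as Spry2 did, and their part in the result was not tested. Spry2 was the 1 of 12 genes tested on the FGF list that was called higher with pairs as blocks (1.04% of all genes), and the list median was 0.12 as counted and −0.11 after thinning. The protein-coding Gm8797 was also called higher, as counted (1.02, adjusted p = 0.0156) and after thinning (0.86, adjusted p = 0.0351), as was 8030462N17Rik as counted (0.90, adjusted p = 0.0186), all with pairs as blocks.

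No gene of the Notch or radial glia lists was called. Hes5 (chr4:154960923-154962371, plus strand, overlapping Gm20421) stood at 375, 316, 379 and 317 CPM in WT and 442, 372, 450 and 468 in het; het was higher in 4 of 4 pairs but the groups overlapped. Its log2 fold change was 0.38 ± 0.11 (edgeR adjusted p = 0.125, and 0.0712 with the block), and 0.37 after thinning. For shares, cells were chosen from raw UMIs and then thinned to 3000. Of the positive radial glia, 48.7%, 46.7%, 49.8% and 45.1% in WT and 54.3%, 46.6%, 52.7% and 53.9% in het held a UMI of Hes5. Of the Neurod6 cells, 6.28% to 14.1% held 1. Of the negative radial glia, 54.7%, 52.9%, 54.3% and 49.5% in WT and 62.5%, 57.5%, 59.4% and 63.1% in het did. The choice of these cells was thus made at unequal depth. That difference of 7.77 points did not pass after adjustment over the 5 shares tested (exact permutation p = 0.0286, the smallest possible, adjusted 0.143), was 2.67 points at 5000 UMIs (exact permutation p = 0.143) and was −3.30 points without thinning. Hes1, the other main Notch effector, stood at 601, 512, 592 and 521 CPM in WT and 979, 424, 945 and 752 in het: 3 pairs were higher and the M2 pair lower (0.54 ± 0.22, adjusted p = 0.200; 0.52 after thinning).

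Of 18 Notch pathway genes, 3 were higher and 2 lower at an unadjusted p under 0.05 (10.5% and 9.6% of all genes), and 0 were called with or without the block, with a median log2 fold change of −0.04. Of 20 radial glia genes other than Sox2 and Pax6, which the rule used, 6 were higher and 2 lower at an unadjusted p under 0.05 (10.5% and 9.6% of all genes), and 0 called, with a median of 0.13 as counted and 0.02 after thinning. Fabp7 was at 1058 ± 242 CPM in WT and 1126 ± 269 in het, and Neurog2 at 304 ± 69.6 and 331 ± 45.6 (SD, n = 4 each). The shares of negative radial glia with a UMI of Neurog2, Pcna or Mcm2 to Mcm7, Fabp7 and Dll1, thinned to 3000 UMIs after being chosen, differed by −0.312, −0.418, 3.13 and −2.10 points (exact permutation, adjusted p = 0.857, 0.679, 0.679 and 0.286). Sox2 and Pax6 are in the rule and are given only as levels, 259 against 294 and 280 against 371 CPM.

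Genes of the G2 and M phase list were called higher in het negative radial glia as counted, with pairs as blocks. Of the 19 G2 and M phase genes, 15 had an unadjusted p under 0.05 and all of these were higher (10.5% of all genes were), 8 were called higher with pairs as blocks (1.04% of all genes), and 10 did not overlap between the groups (4.7% of all genes). Nusap1 stood at 26.0, 31.1, 25.9 and 22.7 CPM in WT and 48.7, 40.4, 110 and 56.5 in het (1.25, adjusted p = 0.0255, pair as a block). The het F1 library, the shallowest, was by far the highest. Other genes named by rule among the calls of the same fit were the importin Kpna2 (1.31, adjusted p = 0.0313), Spc25 (1.08, adjusted p = 0.0194), Aurka (1.07, adjusted p = 0.0400), Prc1 (0.96, adjusted p = 0.0313), Mxd3 (0.92, adjusted p = 0.0397), Oip5 (0.91, adjusted p = 0.0433) and Kif11 (0.90, adjusted p = 0.0313).

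The median log2 fold change of the G2 and M phase list was 0.57 as counted, 0.17 in the M2 pair and 0.54 over the other 3 pairs. After thinning it was 0.18, with 4 genes higher and 2 lower at an unadjusted p under 0.05 (8.45% and 7.47% of all genes tested), and Nusap1 was at 0.39 (adjusted p = 0.124, pair as a block) and Aurka at 0.18 (adjusted p = 0.534). The list then summed to 3829 to 4307 CPM in WT and 4505 to 5338 in het. As counted, it summed to 6486 to 7307 CPM in WT and 7308 to 8887 in het positive radial glia. In the other E12.5 cells the sums were 5552 to 5801 and 5926 to 6312 CPM. Depth differed between the genotypes in the same 3 pairs, and its part in these values was not tested apart from the choice of cells, which thinning also changed. None of the 8 genes from Nusap1 to Kif11 had an adjusted p under 0.05 after thinning with the block. The S phase list, like the G2 and M phase list, holds no gene of the rule, but its sum differed with the choice of cells. It was 4756 CPM in the negative and 4196 in the positive radial glia. Of its 19 genes, 7 were higher at an unadjusted p under 0.05 (10.5% of all genes) and 0 were called. The 7 were led by Rrm2 (577 ± 50.9 against 773 ± 125 CPM) and Pcna (306 ± 22.9 against 392 ± 35.0, SD, n = 4 each). The median of the S phase list was 0.09 as counted and 0.06 after thinning. Among 15 G1 cyclins and inhibitors, Ccne2 (0.77, adjusted p = 0.0397), Cdk2 (0.51, adjusted p = 0.0479) and Cdkn2c (0.61, adjusted p = 0.0402) were called higher and the inhibitors Cdkn1a (−1.47, adjusted p = 0.0435) and Cdkn1c (−0.61, adjusted p = 0.0479) lower with pairs as blocks, against 1.04% and 0.872% of all genes. After thinning none of these 5 had an adjusted p under 0.05. The list median was 0.05 as counted and 0.09 after thinning. At an unadjusted p under 0.05, 3 of its genes were then higher and 1 lower (8.45% and 7.47% of all genes tested).

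**Figure D5:**
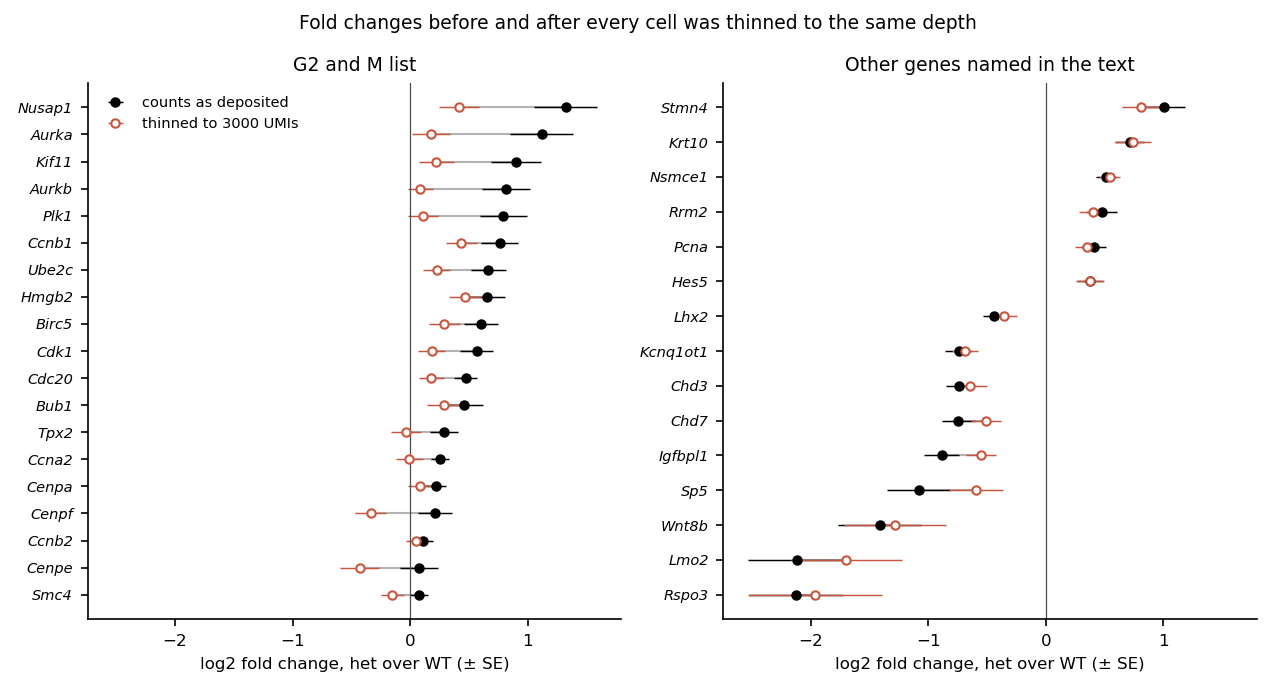
Log2 fold change, het over WT, with its SE in Top2a/Mki67-negative radial glia, from counts as deposited (filled) and after every cell was thinned to 3000 UMIs before the rule (open). The median of the G2 and M phase list shrinks from 0.57 to 0.18, Igfbpl1 goes from −0.89 to −0.55, Sp5 from −1.08 to −0.59, Stmn4 from 1.01 to 0.81 and Chd3 from −0.74 to −0.64, and Krt10 and Nsmce1 go from 0.71 to 0.74 and from 0.51 to 0.55.

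Whether the genotype difference was another in the negative radial glia than in their neighbours was tested as an interaction. Against the positive radial glia 54 of 11913 genes (0.453%) differed, 46 with a larger het over WT ratio in the negative radial glia, of which 12 were on the G2 and M phase list, led by Kif11 (0.83 ± 0.12, adjusted p = 0.000402) and Nusap1 (0.80 ± 0.10, adjusted p = 5.92e-05). Against all other cells 37 of 13182 (0.281%) differed, 33 of them larger and 9 on that list. That balance changed with the libraries, to 23 larger and 19 smaller without WT M1 and to 1 and 2 without WT F1. UMIs of Top2a and Mki67, genes of late cell cycle, split the negative from the positive radial glia, at a depth that differed by genotype. The part of that split in the interactions of the G2 and M phase list was not tested. After thinning 3 genes (0.0290%) and 1 gene (0.00847%) were called. The 3 were Hba-a2, Srp68 and Shmt1, named after their values were seen, and the 1 was Igfbpl1. For Chd3, Stmn4, Krt10, Nsmce1, Rspo3 and Spry2 neither interaction was called, with adjusted p from 0.249 to 0.994. The interaction of genotype with sex, with 2 libraries to each combination, gave 0 called genes in edgeR (245 at an unadjusted p under 0.05) and 0 in DESeq2.

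Markers of other cells differed between libraries. The sum of the erythroid genes was far higher in the M2 pair than in the rest in both genotypes. Thinned to 3000 UMIs after being chosen, 1.38% to 30.4% of negative radial glia and 1.56% to 32.3% of Neurod6 cells held a UMI of Hba-a1. Excitatory neuron genes summed to 380 to 538 CPM in WT and 292 to 520 CPM in het, against 8760 to 10455 in the Neurod6 cells. That list holds Neurod6, which the rule set to 0 in the negative radial glia and which chose the Neurod6 cells. Part of that gap was thus fixed. Of the 10 excitatory neuron genes tested, Stmn2 and Mapt were called lower with pairs as blocks (0.872% of all genes). The list median was −0.43 as counted and −0.21 after thinning. Interneuron and subpallial genes summed to 40.9, 30.5, 44.7 and 24.8 CPM in WT and 24.2, 71.2, 28.2 and 20.4 in het, so that het M2 was highest. Meningeal fibroblast genes summed to 9.77, 52.4, 7.44 and 9.28 CPM in WT and 6.40, 7.30, 3.85 and 26.5 in het, highest in WT M2, with a median log2 fold change of −1.02 over 2 genes tested. Cajal-Retzius genes summed to 9.92, 38.0, 30.8 and 6.74 CPM in WT and 5.99, 9.12, 6.41 and 5.38 in het, with WT M2 and WT F1 highest, and the 1 gene tested was at −0.95. Microglial, pericyte and oligodendrocyte precursor genes summed to at most 2.87, 8.16 and 1.37 CPM in any library and none was tested. The rule itself set Olig1, on the oligodendrocyte precursor list, and Gad2, on the interneuron and subpallial list, to 0. The part of these markers of other cells in the results above was not tested.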

How the data were processed

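For each library the authors deposited raw UMI counts per gene and barcode, with no normalisation. Per the submitters' processing notes, the genome build was mm10 and the tools were STAR 2.7.9a, STARsolo and Cell Ranger. Whether counting used strand, and how cells were called, is not given in the sources used here. The fewest UMIs of a deposited barcode ranged from 1341 to 5465 between the E12.5 libraries. Positions are from GENCODE M21 (GRCm38), which held 99.6% of the 32285 gene identifiers.

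Raw counts of the chosen cells were summed per library, the replicate here, and tested with edgeR 4.0.16 (TMM, filterByExpr, glmQLFit, glmQLFTest, Benjamini-Hochberg over all genes tested) in R 4.3.3. Genes were called at an adjusted p under 0.05. DESeq2 1.42.0, a pair block, thinning of every cell to 3000 or 5000 UMIs before the rule, and leaving out libraries were alternatives. For shares of cells with a UMI, and the split by Pcna and Mcm2 to Mcm7, the cells were chosen from raw UMIs and thinned afterwards. At 3000 UMIs 359 of the 5885 cells, all het, were too shallow and left out. Doublets were scored at an assumed 0.8% per 1000 barcodes and kept. Shares were tested by exact permutation (numpy 2.4.6, scipy 1.17.1). The labels name matched pairs, and deviations from the genotype means of paired libraries correlated over 11124 genes at 0.183, 0.388, 0.174 and 0.261, so the names were taken to pair the samples. WT F2 with het F1 (0.209) and WT F1 with het F2 (0.173) correlated as much, so the correlations do not tell the F1 from the F2 pair. The edgeR fits were checked on simulated counts.

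Named genes are Chd8, members of the lists, the 12 of lowest p between genotypes at a mean of at least 10 CPM, and the 20 highest and 10 lowest genes between cell sets. The up to 12 largest changes in each direction with the block, with the same sign in 4 of 4 pairs, were added after seeing the data, as were the Eomes and Neurod6 sets, the pairs left out of the block, DESeq2 on the genes that edgeR tested and the thinned block and interaction fits. The cells and the lists were chosen with earlier results of these data known.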

Additional observations from a re-analysis of the deposited data

Results flagged for a closer look

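In the share of negative radial glia with a UMI of Dll1 at 3000 UMIs per cell, het F1 stood apart at 4.21% from the other het libraries, at 8.45% to 9.09%. The CPM of 8030462N17Rik in WT M2 was 8.37, against 17.8 to 19.7 in the other WT libraries. Hbb-bt in negative radial glia was 545 CPM in WT M2 against 11.2 to 25.5 in the other WT libraries, and 333 CPM in het M2 against 3.92 to 8.42 in the other het libraries. Hbb-bs was 475 CPM in WT M2 against 17.2 to 44.0, and 318 CPM in het M2 against 8.33 to 11.8. In each, the gap to the nearest library, as a part of the group's range, was above the critical value of Dixon's test. This was asked of 94 groups of 4 libraries, and chance alone marks about 1 in 20.

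The genotype effect differed in edgeR's interaction test between the negative radial glia and the other E12.5 cells for 37 genes, and between the negative and the positive radial glia for 54 genes. The part of the split by Top2a and Mki67 at unequal depth in these calls was not tested.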

How the results depend on the processing

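The count of genes called between het and WT in negative radial glia, 0 in the fit of genotype alone, was 321 with DESeq2 on the same 11124 genes, 332 with DESeq2 and 356 with edgeR on 18877 genes with no filter on low counts, 358 with the code start as a covariate, 1 with sex as a covariate, 129 with all 32 libraries in the fit, 1 after thinning to 3000 UMIs, 1980 without the M2 pair and 1111 without it after thinning. With the replicate block it was 213, and 48 with the block after thinning. Block fits without a pair gave 9 (M1), 2088 (M2), 12 (F1) and 1 (F2), and leaving out each library gave 0 to 2068, with 8 without WT M2. The cause was not tested.

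Genes whose genotype effect differed from that in the other cells (37) were 193 with no filter, 1 after thinning and 3 to 94 without each library. Those that differed from the positive radial glia (54) were 27 with DESeq2 on the same 11913 genes, 28 with DESeq2 and 140 with edgeR on 21438 genes with no filter, 3 after thinning and 29 to 115 without each library.

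The difference in the share of negative radial glia, 1.20 points, was −1.59 with at least 4 UMIs of Sox2 and Pax6, and 0.193 to 3.04 without each library (exact permutation p = 0.0286 without het M2). Within negative radial glia, the Hes5 difference was 2.67 points at 5000 UMIs, −3.30 without thinning and 7.77 with the replicate block (exact sign-flip test, at the smallest p it allows), and 6.66 to 8.82 without each library (exact permutation p = 0.0571 without WT F2). The Pcna or Mcm2 to Mcm7 difference was −0.418 points at 3000 UMIs 0.721 at 5000 (exact permutation p = 0.0286, 1 of 5 shares) and −1.25 without thinning. The Neurog2 difference, −0.312, was −2.31 at 5000 UMIs and −6.47 without thinning, and ran from −2.76 to 1.31 without each library. The Fabp7 difference, 3.13, was −2.32 without thinning and −0.0291 to 4.84 without each library.

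Most named genes were chosen by their fold or p in these libraries, so their signs under the alternatives show little. Hbb-bt and Hbb-bs turned to 2.38 and 1.71 without WT M2, with −4.42 and −3.60 without het M2. Against other cells, 1898 genes moved 1 way in 8 of 8 libraries, 1519 after thinning and 1910 without doublets. Samples of 4 against 4 limit the exact test to a smallest p of 0.0286, and the summed depth of a library's negative radial glia, 3120051 to 7868910 UMIs, limits genes of low level.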
